A study of Homo sapiens with 12 samples.

Results

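The genes described here encode the proteases that make plasmin, their cell surface receptor, inhibitors of the serpin family, and the tissue factor pathway that starts coagulation. They were chosen by name: the urokinase gene PLAU, the tissue plasminogen activator gene PLAT, the urokinase receptor gene PLAUR, the serpin genes SERPINE2, SERPINB2 and SERPINB5, the tissue factor gene F3 and the inhibitor genes TFPI and TFPI2. Of these 9 genes 8 were measured, by 18 probe sets, out of 19775 genes in all. SERPINB2 has no probe set in the annotation used and is not analysed here. Among several probe sets of a gene, the one with the highest mean over the 12 arrays led, and the others are given beside it.

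RNA was measured on 12 Affymetrix U133 Plus 2.0 arrays from Ishikawa cells, an established endometrial cancer line. The 4 groups of 3 arrays were GPR54 siRNA plus metastin-10, GPR54 siRNA plus control peptide, negative control siRNA plus metastin-10, and negative control siRNA plus control peptide. Metastin-10 (kisspeptin-10) is a short peptide from the KISS1 product, and GPR54 is its receptor, encoded by KISS1R. All groups were transfected, for 48 h, and then received a peptide for 24 h, metastin-10 at 10 µM. The labels call the 3 arrays of a group biological replicates and do not say whether these were separate cultures, so a p-value measures the spread between these samples. A single cell line was used.

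Urokinase and tissue plasminogen activator cut plasminogen into plasmin, which degrades fibrin and activates matrix proteases and growth factors. Urokinase acts largely while bound to its receptor on the cell surface, and this system has long been studied in tumour cell invasion. Tissue factor, a membrane receptor for coagulation factor VII, starts the extrinsic clotting pathway, and TFPI blocks it. In the endometrium tissue factor is known as a product of decidual stromal cells, and it is also made by many carcinomas.

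AP-1 sites, through which growth factor and stress signals act on transcription, are known in promoters of some of these genes. In the 250 bases before the transcription start, the letters TGANTCA were found in 4 of the 9 promoters of the 7 genes searched. These were promoters of PLAUR, SERPINB5, F3 and TFPI2, against 6.57% of the 35116 RefSeq promoters of assembly GRCh38.p14. PLAT was not searched. The letters were searched on both strands and read the same on each when the middle base is set aside. The stretches are shown because they carry the pattern that the 4 genes share. As written here, its middle base is G in PLAUR, A in SERPINB5 and TFPI2, and either in the sites of F3. The site is in capitals and each stretch is written along the strand of its gene.
PLAUR: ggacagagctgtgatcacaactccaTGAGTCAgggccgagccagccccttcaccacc
SERPINB5: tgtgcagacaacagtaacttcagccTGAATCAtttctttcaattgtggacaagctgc
F3: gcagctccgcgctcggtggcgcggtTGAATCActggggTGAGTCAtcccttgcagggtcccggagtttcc
TFPI2: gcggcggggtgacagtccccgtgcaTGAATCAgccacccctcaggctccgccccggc
They lie upstream of the start at chr19:43670324-43670380 (minus strand) for PLAUR, chr18:63476787-63476843 (plus strand) for SERPINB5, chr1:94541938-94542007 (minus strand) for F3 and chr7:93890809-93890865 (minus strand) for TFPI2. The first base of the site lay 186 bases before the start in PLAUR, 146 in SERPINB5 and 87 in TFPI2, and F3 held a pair of sites at 223 and 210. Of the other motifs searched on both strands, GCGTG, a hypoxia response core, was found in 4 of the 9 promoters (32.2% of all promoters). These were of PLAU, PLAUR, SERPINE2 and SERPINB5. ACGTG, another such core, was found in 1 of the 9, of SERPINE2 (18.5%), and CATTCC, a TEAD site, in 0 of the 9 (11.9%). GCGTG and ACGTG can overlap one another. A match is a description of the letters and not a measured binding site.

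Values are on a log2 scale, so a difference of 1 is a doubling. The arrays resembled one another closely, with a lowest correlation of 0.992 between any 2. All 8 epithelial and endometrial carcinoma markers checked were brighter than at least 85.6% of probe sets, EPCAM at 13.05 and ESR1 at 8.59. Below the array median were 7 of 10 stromal fibroblast markers, 6 of 9 endothelial, 6 of 8 leukocyte and 3 of 6 platelet markers, while the fibroblast marker COL1A1 was at 9.84. The mean epithelial marker level was 11.59 to 11.72 with GPR54 siRNA and metastin-10, 11.64 to 11.70 with GPR54 siRNA and control peptide, 11.47 to 11.54 with negative control siRNA and metastin-10, and 11.66 to 11.71 with negative control siRNA and control peptide. KRT19 was the epithelial marker that passed the test, lower with metastin-10 under negative control siRNA and higher with GPR54 siRNA under metastin-10, and 0 markers of the other 4 cell types passed in any comparison. KISS1R, the siRNA target, averaged 9.43 ± 0.16 (SD, n = 3 in each group) with GPR54 siRNA and metastin-10, 9.42 ± 0.05 with GPR54 siRNA and control peptide, 8.40 ± 0.04 with negative control siRNA and metastin-10, and 9.28 ± 0.13 with negative control siRNA and control peptide. A lower KISS1R mRNA was therefore not seen with the GPR54 siRNA, and those arrays are called the arrays labelled GPR54 siRNA throughout. The 4 replicate 3 arrays, 1 in each group, stood apart in their beta-actin 3 prime minus 5 prime difference, at 0.31 ± 0.04 (SD), against 0.77 ± 0.09 for the 4 replicate 1 arrays and 0.72 ± 0.05 for the 4 replicate 2 arrays.

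None of the 8 genes changed past the threshold in any of the 5 comparisons tested with limma (adjusted p under 0.05 over all 54613 probe sets). The differences nearest to it were all in the comparisons that use the negative control siRNA, metastin-10 arrays. There SERPINB5 was at its lowest group mean and F3 at its highest. The ranges of the 4 group means were 0.48 for F3, 0.42 for SERPINB5 and between 0.12 and 0.24 for the other 6 genes.

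**Figure D1:**
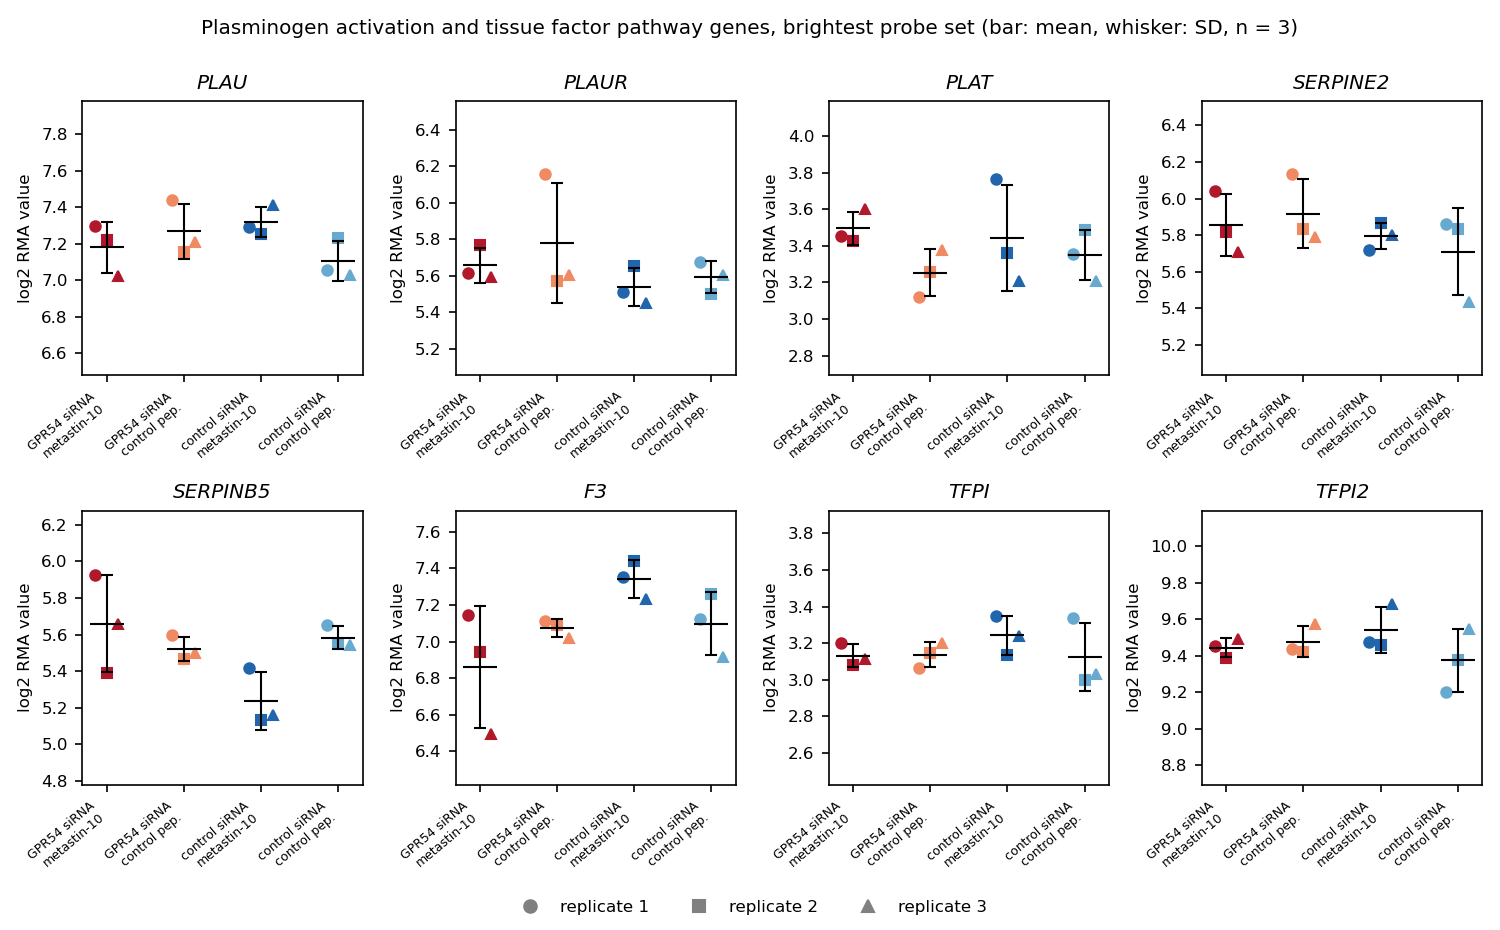
Log2 RMA level of each of the 8 genes by its leading probe set, one panel a gene, with the 3 arrays of each group as points and the group mean ± SD beside them. By group mean, SERPINB5 is lowest and F3 highest in the negative control siRNA, metastin-10 group, while the group means of TFPI lie within 0.12 of each other.

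With metastin-10 against control peptide under negative control siRNA, 0 of the 8 genes passed, against 0.607% of all genes (120 of 19775, with 15 higher, 0.0759%, and 105 lower, 0.531%). At an unadjusted p under 0.05 there was 1 of the 8, SERPINB5, against 11.9% of all genes. The smallest adjusted p of a leading probe set was 0.341. Of the 8 differences 6 lay above 0 and 2 below, with a median of 0.11, against a median of 0.007 over all genes. The groups did not overlap for 1 gene higher, PLAU (8.72% of all genes), and for 1 gene lower, SERPINB5 (10.9% of all genes). The 95% intervals of 7 of the 8 genes lay within a 1.5-fold change in either direction, as did those of 18069 of all 19775 genes. Those of all 8 lay within a 2-fold change, as did 19702 of all genes.

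Metastin-10 against control peptide in those labelled GPR54 siRNA also gave 0 of the 8 genes, where 0% of all genes passed. At an unadjusted p under 0.05 there were 0, against 1.81% of all genes. The median difference was -0.05, and the intervals of all 8 genes lay within a 1.5-fold change, as did those of 19319 of all 19775 genes. The groups did not overlap for PLAT, higher with metastin-10, against 2.33% of all genes.

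Between the siRNA labels under control peptide, 0 of the 8 genes passed, 0 had an unadjusted p under 0.05 (2.8% of all genes) and 0 had groups that did not overlap (9.23% of all genes). Over all genes 0% passed, by their leading probe sets. The median difference was 0.06, and the intervals of all 8 genes lay within a 1.5-fold change, as did those of 19247 of all 19775 genes.

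Between the siRNA labels under metastin-10, 0 of the 8 genes passed, against 1.04% of all genes (205, with 191 higher, 0.966%, and 14 lower, 0.0708%). At an unadjusted p under 0.05 there were 2 of the 8, F3 and SERPINB5, against 13.1% of all genes, and the smallest adjusted p was 0.230. Of the differences 4 lay above 0 and 4 below, with a median of -0.02. The groups did not overlap for 1 gene, F3, lower in the arrays labelled GPR54 siRNA (6.35% of all genes). This comparison and that of metastin-10 with control peptide under negative control siRNA share the 3 negative control siRNA, metastin-10 arrays, so opposite signs in them are not separate observations. With array weights F3 passed in this comparison (-0.44, adjusted p = 0.0392), a fit in which 2016 probe sets passed, against 316 with equal weights.

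The interaction, taken as the metastin-10 effect in the arrays labelled GPR54 siRNA minus that under negative control siRNA, passed for 0 of the 8 genes and for 0.106% of all genes (21). SERPINB5 and F3 had an unadjusted p under 0.05, against 6.28% of all genes. The intervals were wider here, with half-widths of 0.31 to 0.44, and 5 of 8 lay within a 1.5-fold change and all 8 within a 2-fold change. Over all 19775 genes, 14684 lay within a 1.5-fold change and 19525 within a 2-fold change.

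**Figure D2:**
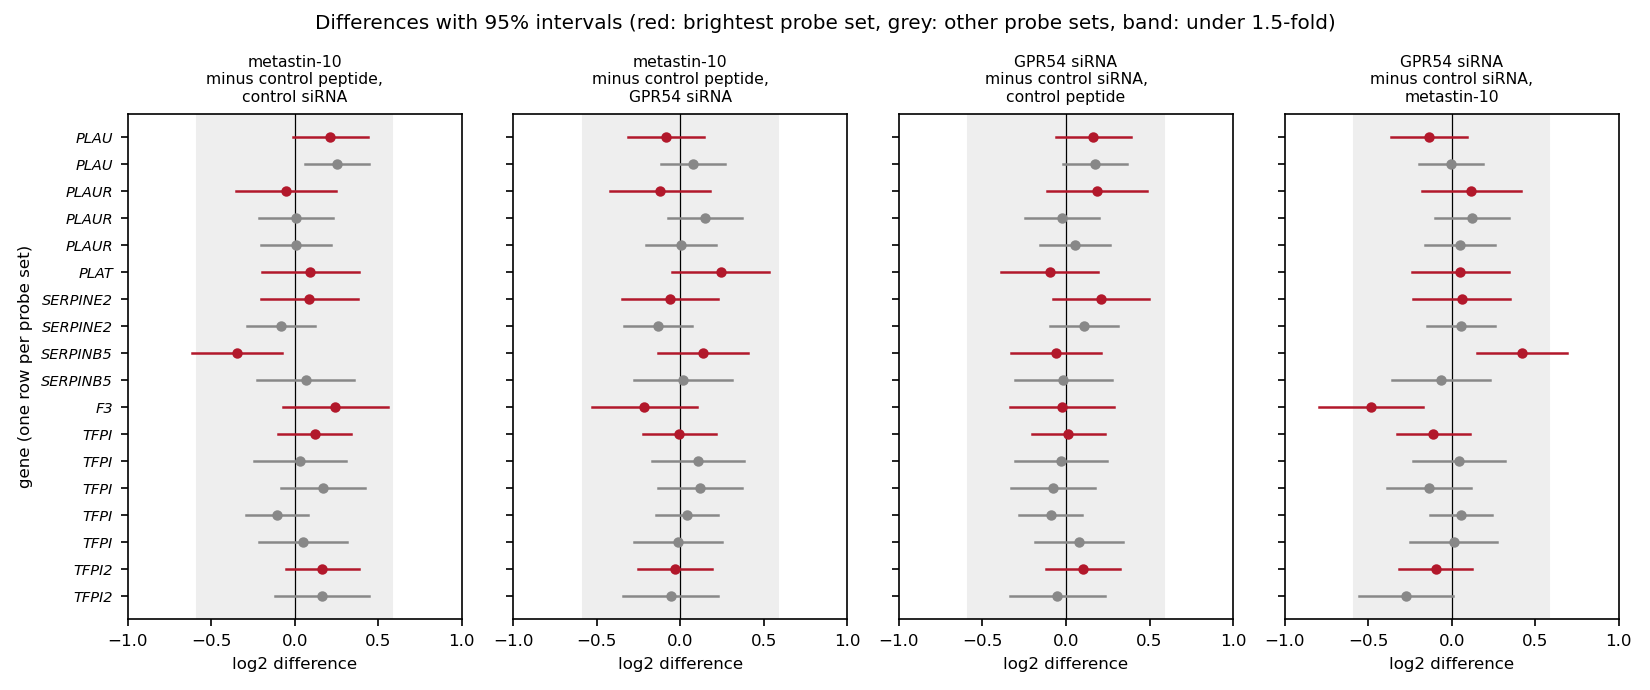
Log2 difference of each of the 18 probe sets in the 4 comparisons between 2 groups, with its 95% interval from limma. Leading probe sets are in red and the others in grey, and the band marks changes under 1.5-fold. Among leading probe sets, the intervals of SERPINB5 and F3 leave 0 between the siRNA labels under metastin-10. That of SERPINB5 also does with metastin-10 under negative control siRNA, as does that of the second probe set of PLAU. None passed after adjustment over all probe sets.

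PLAU encodes urokinase, the plasminogen activator of the cell surface. Its leading probe set was at 7.29, 7.22 and 7.02 with GPR54 siRNA and metastin-10, 7.44, 7.16 and 7.21 with GPR54 siRNA and control peptide, 7.29, 7.25 and 7.41 with negative control siRNA and metastin-10, and 7.06, 7.23 and 7.03 with negative control siRNA and control peptide. Under negative control siRNA each metastin-10 array lay above each control peptide array, though the nearest pair was 7.25 against 7.23. The difference was 0.21 ± 0.10 (log2, SE; 95% interval -0.01 to 0.44, adjusted p = 0.498). Between same-numbered arrays it was 0.24, 0.02 and 0.38. The second probe set averaged 6.35 ± 0.08 (SD, n = 3) with negative control siRNA and metastin-10 and 6.10 ± 0.03 with negative control siRNA and control peptide, again without overlap. Its difference of 0.25 ± 0.09 had the smallest adjusted p of the 18 probe sets in this comparison, 0.323. Under control peptide this probe set averaged 6.27 ± 0.05 with GPR54 siRNA, which also did not overlap the 6.10 ± 0.03 of negative control siRNA. In the arrays labelled GPR54 siRNA the peptide difference was -0.09 (95% interval -0.31 to 0.14) at the leading probe set and 0.08 (-0.12 to 0.27) at the second, and the groups of both overlapped. The interaction was -0.30 at the leading probe set (95% interval -0.62 to 0.02, adjusted p = 0.849) and -0.18 at the second (-0.45 to 0.09, adjusted p = 0.930). In order of group mean the 4 groups were negative control siRNA plus metastin-10 (7.32 ± 0.08), GPR54 siRNA plus control peptide (7.27 ± 0.15), GPR54 siRNA plus metastin-10 (7.18 ± 0.14) and negative control siRNA plus control peptide (7.10 ± 0.11), and each neighbouring pair overlapped.

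PLAT encodes tissue plasminogen activator, the secreted activator best known for dissolving fibrin clots. Its 1 probe set was dim, with 20.4% of probe sets below it, so a change there may be compressed. It was at 3.46, 3.43 and 3.60 with GPR54 siRNA and metastin-10, and 3.12, 3.26 and 3.38 with GPR54 siRNA and control peptide. The remaining arrays were at 3.76, 3.36 and 3.21 with negative control siRNA and metastin-10, and 3.36, 3.49 and 3.21 with negative control siRNA and control peptide. Among the arrays labelled GPR54 siRNA each metastin-10 array was above each control peptide array, by 0.24 on average (95% interval -0.05 to 0.53, adjusted p = 0.999997 in limma). Under negative control siRNA the groups overlapped fully, with a difference of 0.09.

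PLAUR encodes the urokinase receptor, which is anchored in the membrane by a lipid. Its leading probe set was at 5.61, 5.77 and 5.59 with GPR54 siRNA and metastin-10, 6.16, 5.57 and 5.61 with GPR54 siRNA and control peptide, 5.51, 5.65 and 5.45 with negative control siRNA and metastin-10, and 5.68, 5.50 and 5.61 with negative control siRNA and control peptide. A single array, replicate 1 of GPR54 siRNA plus control peptide at 6.16, lay above the other 11, and without it the difference between the siRNA labels under control peptide was -0.0044 in place of 0.19. With metastin-10 against control peptide the difference was -0.05 under negative control siRNA and -0.12 in the arrays labelled GPR54 siRNA. The other probe sets gave group means of 5.57 to 5.72 and of 4.71 to 4.77, and the groups of each overlapped in every comparison between 2 of them.

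SERPINE2 encodes protease nexin-1, which inhibits thrombin, urokinase and plasmin. Its leading probe set was at 6.04, 5.82 and 5.71 with GPR54 siRNA and metastin-10, 6.13, 5.83 and 5.79 with GPR54 siRNA and control peptide, 5.72, 5.87 and 5.80 with negative control siRNA and metastin-10, and 5.86, 5.83 and 5.43 with negative control siRNA and control peptide. All 4 groups overlapped. The difference between the siRNA labels under control peptide was the largest of the gene, at 0.21 (95% interval -0.08 to 0.50). A second, dimmer probe set had group means between 3.21 and 3.40.

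SERPINB5 encodes maspin, a serpin of epithelial cells that does not act as a classical protease inhibitor and has been studied as a suppressor of invasion. Its leading probe set was at 5.92, 5.39 and 5.66 with GPR54 siRNA and metastin-10, 5.60, 5.47 and 5.50 with GPR54 siRNA and control peptide, 5.42, 5.13 and 5.16 with negative control siRNA and metastin-10, and 5.65, 5.55 and 5.54 with negative control siRNA and control peptide. The 3 negative control siRNA, metastin-10 arrays lay below every array of both control peptide groups, and overlapped the GPR54 siRNA, metastin-10 group through 1 array of each, at 5.42 and 5.39. In a bulk measurement, fewer cells that express a gene and less of its RNA per cell cannot be told apart.

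With metastin-10 under negative control siRNA SERPINB5 differed by -0.35 ± 0.12 (log2, SE), a 1.27-fold lower level (95% interval -0.62 to -0.08, adjusted p = 0.341 in limma). The same-numbered arrays differed by -0.24, -0.42 and -0.38. In the arrays labelled GPR54 siRNA the difference was 0.14 (95% interval -0.13 to 0.41), with 2 of 3 same-numbered pairs above 0. Between the siRNA labels under metastin-10 it was 0.42 ± 0.12 (95% interval 0.15 to 0.69, adjusted p = 0.230), and leaving out replicate 1 of GPR54 siRNA plus metastin-10, the array at 5.92, gave 0.29 (adjusted p = 0.627). The interaction was 0.48 ± 0.18 (95% interval 0.10 to 0.86, adjusted p = 0.652). With the spread found here, a difference of 0.64 would have been needed to pass with metastin-10 under negative control siRNA, and 0.62 between the siRNA labels under metastin-10. The second probe set, near the bottom of the scale at group means of 2.32 to 2.40, differed by 0.06 and -0.06 in these 2 comparisons.

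F3 encodes tissue factor. Its 1 probe set was at 7.14, 6.94 and 6.49 with GPR54 siRNA and metastin-10, 7.11, 7.09 and 7.02 with GPR54 siRNA and control peptide, 7.36, 7.44 and 7.23 with negative control siRNA and metastin-10, and 7.12, 7.26 and 6.91 with negative control siRNA and control peptide. With metastin-10, every array labelled GPR54 siRNA lay below every negative control siRNA array. In the other comparisons between 2 groups they overlapped, apart from the negative control siRNA, metastin-10 group and the GPR54 siRNA, control peptide group, which differ in both siRNA and peptide.

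Between the siRNA labels under metastin-10, F3 differed by -0.48 ± 0.14, a 1.40-fold lower level in the arrays labelled GPR54 siRNA (95% interval -0.80 to -0.17, adjusted p = 0.239 in limma). Same-numbered arrays differed by -0.21, -0.50 and -0.74, though in this comparison arrays of the same number did not all deviate together and were not taken as pairs. The lowest array, replicate 3 of GPR54 siRNA plus metastin-10, set part of this size, since the difference without it was -0.30 (adjusted p = 0.272). With metastin-10 under negative control siRNA F3 was at 0.24 ± 0.14 (95% interval -0.07 to 0.56, adjusted p = 0.583), with all 3 same-numbered pairs above 0, at 0.23, 0.18 and 0.32. In the arrays labelled GPR54 siRNA it was at -0.22 (95% interval -0.53 to 0.10), and the same-numbered pairs were at 0.03, -0.15 and -0.53. The interaction was -0.46 ± 0.20 (95% interval -0.90 to -0.02, adjusted p = 0.793). A difference of 0.72 would have passed between the siRNA labels under metastin-10.

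TFPI encodes the inhibitor of the complex of tissue factor and factor VII. All 5 of its probe sets were dim, with 16.1% of probe sets below the leading one and 0.527% to 11.5% below the other 4, so its level could not be followed well. The leading probe set averaged 3.13 ± 0.06 with GPR54 siRNA and metastin-10, 3.14 ± 0.07 with GPR54 siRNA and control peptide, 3.24 ± 0.11 with negative control siRNA and metastin-10, and 3.12 ± 0.19 with negative control siRNA and control peptide (SD, n = 3 each). The differences of the leading probe set lay between -0.11 and 0.12 in the 4 comparisons between 2 groups. With metastin-10 under negative control siRNA it was at 0.12, and the other 4 probe sets were at 0.03, 0.17, -0.11 and 0.05. The groups of the one at -0.11 did not overlap, lower with metastin-10, as for 4762 of all 54613 probe sets.

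TFPI2 encodes a matrix-bound Kunitz inhibitor of plasmin and other serine proteases, and was the brightest probe set of the 18 relative to the rest of the array, with 91.3% of probe sets below it. Its leading probe set was at 9.45, 9.39 and 9.49 with GPR54 siRNA and metastin-10, 9.44, 9.42 and 9.57 with GPR54 siRNA and control peptide, 9.47, 9.46 and 9.68 with negative control siRNA and metastin-10, and 9.20, 9.37 and 9.55 with negative control siRNA and control peptide. All 4 groups overlapped. With metastin-10 the difference was 0.17 under negative control siRNA (95% interval -0.05 to 0.38) and -0.03 in the arrays labelled GPR54 siRNA. The second probe set differed most between the siRNA labels under metastin-10, by -0.27 (95% interval -0.56 to 0.01, adjusted p = 0.516), where the leading one differed by -0.10.

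**Figure D3:**
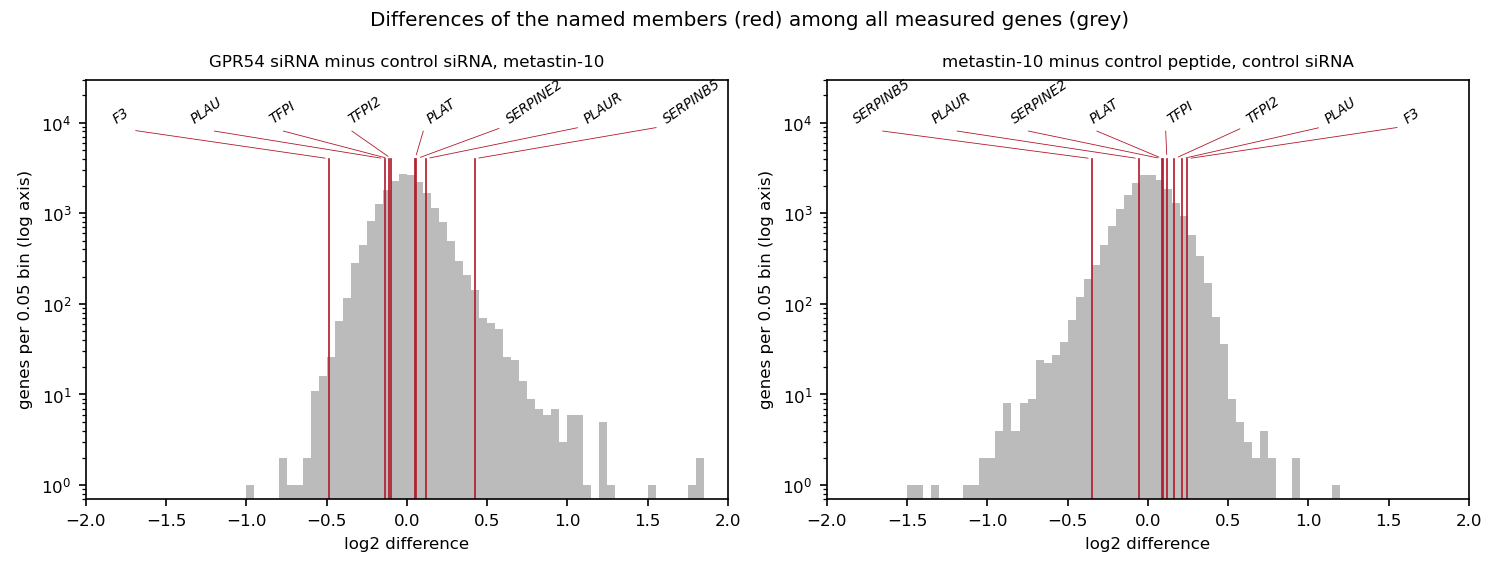
Log2 differences of the 8 genes by their leading probe sets (red lines) over the distribution of all 19775 genes (grey). Shown are the siRNA labels under metastin-10 and metastin-10 against control peptide under negative control siRNA. The 8 genes lie between -0.48 and 0.42, inside the spread of all genes.

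Other genes of plasmin formation and coagulation were counted in lists, beside the 0.607% of all genes that passed with metastin-10 under negative control siRNA (0.531% lower, all-gene median difference 0.0072) and the 1.04% that passed between the siRNA labels under metastin-10 (0.966% higher, all-gene median 0.00074). Of 23 measured plasminogen receptor, uptake and fibrinolysis genes, 1 fell and 0 rose with metastin-10 under negative control siRNA (list median 0.02), and 1 rose between the siRNA labels under metastin-10 (median -0.04). Of 25 other coagulation genes and thrombin receptors, 0 passed in the first of these comparisons, where the smallest adjusted p was 0.0721 for PROS1, the gene of the anticoagulant protein S. In the second, 1 rose. Of 18 membrane serine proteases and Kunitz inhibitors 1 fell and 0 rose in the first and 1 rose in the second (medians -0.02 and 0.09). Of 16 growth factor substrates and partners of urokinase and plasmin 1 fell and 0 rose in the first and 1 rose in the second (medians 0.01 and -0.09). Of 29 other SERPIN genes 0 passed in any comparison, and SERPINA1, the antitrypsin gene, had the smallest p with metastin-10 under negative control siRNA (-0.34 ± 0.09, adjusted p = 0.148). The other 3 probe sets of SERPINA1 were at 0.19, -0.03 and -0.06. In the remaining 3 comparisons, the interaction included, 0 genes of any of the 5 lists passed. The lists were chosen with earlier results of these data known. Their shares of calls therefore cannot be read as an enrichment over all genes.

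The listed genes that passed were VEGFA, VLDLR, TMPRSS2 and VKORC1. Each had its lowest mean in the negative control siRNA, metastin-10 group, which both comparisons use. None of them passed in the interaction as fitted here, though VEGFA did in 4 of 20 refits and VLDLR and TMPRSS2 in 1 each, with array weights.

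VEGFA, the vascular growth factor whose matrix-bound forms plasmin can release, was at 11.37, 11.50 and 11.19 with GPR54 siRNA and metastin-10, 11.29, 11.52 and 11.27 with GPR54 siRNA and control peptide, 10.50, 10.66 and 10.52 with negative control siRNA and metastin-10, and 11.35, 11.41 and 11.16 with negative control siRNA and control peptide. The 3 negative control siRNA, metastin-10 arrays lay below the other 9. VEGFA fell with metastin-10 under negative control siRNA by 0.74 ± 0.11 on the log2 scale (1.67-fold lower, adjusted p = 0.00943), and its other 3 probe sets were at -0.51, -0.74 and -0.50, of which the last did not pass. It was 0.79 ± 0.11 higher in the arrays labelled GPR54 siRNA plus metastin-10 (1.73-fold, adjusted p = 0.00493), with its other probe sets at 0.70, 0.98 and 0.75, of which the last did not pass (adjusted p = 0.0678). That call was kept without any single array and ended with only the 2 groups compared in the fit (adjusted p = 0.0541). The interaction was 0.73 (adjusted p = 0.183). The fall was not called without replicate 1 of negative control siRNA plus metastin-10 (-0.71, adjusted p = 0.0600), nor without replicate 1 (-0.72, adjusted p = 0.0637) or replicate 2 (-0.69, adjusted p = 0.0711) of negative control siRNA plus control peptide.

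VLDLR, an endocytic receptor that takes up urokinase bound to its inhibitor, was at 8.66, 8.72 and 8.49 with GPR54 siRNA and metastin-10, 8.74, 8.61 and 8.58 with GPR54 siRNA and control peptide, 7.85, 8.07 and 8.03 with negative control siRNA and metastin-10, and 8.52, 8.61 and 8.50 with negative control siRNA and control peptide. Again the 3 negative control siRNA, metastin-10 arrays lay below all others. VLDLR fell with metastin-10 under negative control siRNA by 0.56 ± 0.09 on the log2 scale (1.47-fold lower, adjusted p = 0.0215), and was 0.64 ± 0.09 higher in the arrays labelled GPR54 siRNA plus metastin-10 (adjusted p = 0.00671). The fall was not called without replicate 1 (-0.49, adjusted p = 0.112) or replicate 2 (-0.60, adjusted p = 0.0528) of negative control siRNA plus metastin-10. It was also not called without replicate 1 (-0.57, adjusted p = 0.0921), replicate 2 (-0.52, adjusted p = 0.130) or replicate 3 (-0.58, adjusted p = 0.0599) of negative control siRNA plus control peptide, with replicates 1 and 2 only (-0.60, adjusted p = 0.0629) or with only the 2 groups compared (adjusted p = 0.0972). The second call was kept without any single array and ended with only the 2 groups compared (adjusted p = 0.106).

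TMPRSS2, a membrane serine protease of epithelial cells, was at 9.52, 9.58 and 9.41 with GPR54 siRNA and metastin-10, 9.54, 9.46 and 9.45 with GPR54 siRNA and control peptide, 9.12, 9.08 and 8.94 with negative control siRNA and metastin-10, and 9.43, 9.53 and 9.46 with negative control siRNA and control peptide. It fell by 0.43 ± 0.08 with metastin-10 under negative control siRNA (adjusted p = 0.0434), a call that leaving out 11 of the 12 arrays in turn ended (all but replicate 3 of GPR54 siRNA plus metastin-10), with values of -0.46 to -0.38. It also ended with replicates 1 and 2 only (-0.38, adjusted p = 0.105), with only the 2 groups compared (adjusted p = 0.168) and with the mean of all probe sets (-0.28, adjusted p = 0.0555). In the arrays labelled GPR54 siRNA plus metastin-10 it was 0.45 ± 0.08 higher (adjusted p = 0.0253). That call ended without replicate 1, 2 or 3 of negative control siRNA plus metastin-10 (adjusted p = 0.0652, 0.0872 and 0.0718), replicate 2 of GPR54 siRNA plus control peptide (0.0508), or replicate 1 or 2 of GPR54 siRNA plus metastin-10 (0.121 and 0.136). It ended too with replicates 1 and 2 only (adjusted p = 0.0663) and with only the 2 groups compared (adjusted p = 0.244). The other probe sets of TMPRSS2 were at -0.32, -0.55 and 0.17 with metastin-10 under negative control siRNA, none past the threshold, and at 0.38, 0.67 and 0.10 between the siRNA labels under metastin-10, of which the 0.67 passed.

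VKORC1, the vitamin K reductase needed to make functional clotting factors, was at 9.90, 9.85 and 9.80 with GPR54 siRNA and metastin-10, 9.78, 9.77 and 9.81 with GPR54 siRNA and control peptide, 9.44, 9.34 and 9.42 with negative control siRNA and metastin-10, and 9.65, 9.75 and 9.73 with negative control siRNA and control peptide. It was 0.45 ± 0.07 higher in the arrays labelled GPR54 siRNA plus metastin-10 (adjusted p = 0.0142), and differed by -0.31 ± 0.07 with metastin-10 under negative control siRNA (adjusted p = 0.112). The first call ended without replicate 1 or 2 of negative control siRNA plus metastin-10 (adjusted p = 0.05004 and 0.0850) and without replicate 1 or 2 of GPR54 siRNA plus metastin-10 (adjusted p = 0.0854 and 0.0731). It also ended with replicates 1 and 2 only (0.48, adjusted p = 0.0595) and with only the 2 groups compared (adjusted p = 0.193). The difference with metastin-10 under negative control siRNA passed in 3 of 21 refits, with a smallest adjusted p of 0.0200.

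**Figure D4:**
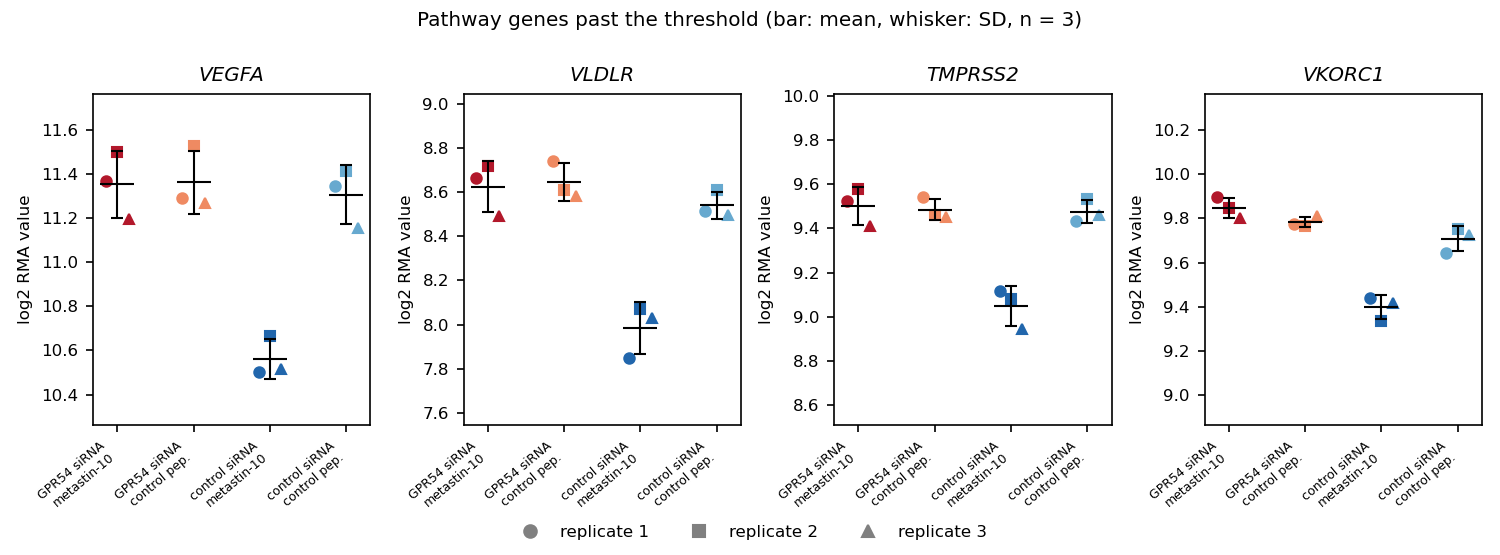
Log2 RMA level of VEGFA, VLDLR, TMPRSS2 and VKORC1 by their leading probe sets, with the 3 arrays of each group as points and the group mean ± SD. In each panel the 3 negative control siRNA, metastin-10 arrays lie below the other 9.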

How the data were processed

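The authors deposited 1 table of log2 expression values for 12 arrays, which come from RMA, per the submitters' processing notes, and whose software version is not given in the sources used here. RMA makes the arrays' distributions alike, which would hide a shift of most genes, and it compresses changes of dim probe sets. Depth does not apply to arrays, whose number limits the precision. Detection calls were not used here.

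The table held 54675 probe sets. Control probe sets (62) were left out and 54613 tested without a filter. Of these, 41091 were paired with 1 gene by the platform annotation, 1801 with several and 11721 with none, and only those with 1 gene were named. Symbols were checked by Entrez identifier against the RefSeq gene table of GRCh38.p14, which matched 41037 and changed 0. Probe sets have no coordinates here. Promoter sequences are RefSeq's, on GRCh38.p14.

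Groups followed the labels. limma 3.58.1 in R 4.3.3 fitted 4 group means over the 12 arrays (8 residual degrees of freedom), with 5 contrasts, two-sided tests and Benjamini-Hochberg adjustment over the 54613 probe sets of each. Every adjusted p is from this limma fit unless another fit is named. The limma fit was run on simulated data with independent noise and changes planted in a single group. Only metastin-10 against control peptide under negative control siRNA was checked there. The other contrasts, the refits and the motif search were not. Alternatives are given in the closing section.

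The 9 genes and all lists were chosen with earlier results of these data known. The lists were plasminogen receptors, uptake and other fibrinolysis genes, other coagulation genes and thrombin receptors, membrane serine proteases and Kunitz inhibitors, growth factor substrates and partners of urokinase and plasmin, other SERPIN genes, and markers of epithelial and endometrial carcinoma cells, stromal fibroblasts, endothelium, leukocytes and platelets. Named are the members, KISS1R, and from each list the genes past the threshold or the gene with the smallest p. COL1A1, EPCAM and ESR1 were named after their values were seen. Motifs were planned for genes that change, and were shown for all measured genes but PLAT because none changed. PLAT was left out by a filter on its chromosome, which was not applied to the background of all promoters.

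The labels number the replicates 1 to 3 without saying what a number shares. After subtracting group means, same-numbered arrays correlated by over 0.1 in all 3 pairs for metastin-10 against control peptide under negative control siRNA (0.17 to 0.44). This was likewise so in those labelled GPR54 siRNA (0.26 to 0.52) and for the siRNA labels under control peptide (0.11 to 0.54). The numbers were therefore taken to pair those arrays when same-numbered differences were listed. In each of these comparisons the highest correlation was that of replicate 3. Between the siRNA labels under metastin-10 the range was -0.15 to 0.26, and the arrays were not taken as pairs. Pairs in the other comparisons would imply pairs there too, so what the numbers share stays uncertain. The limma fit reported left the replicate number out, so its p-values do not use the pairing. The refit with the replicate block, in the closing section, does use it.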

Additional observations from a re-analysis of the deposited data

Results flagged for a closer look

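KISS1R, the gene of the metastin-10 receptor, was the one gene named here whose metastin-10 effect differed between the siRNA labels by the test of that difference, which 21 of all 19775 genes passed. The effect was 0.01 on the log2 scale in the arrays labelled GPR54 siRNA and -0.88 under negative control siRNA, an interaction of 0.89 (95% interval 0.59 to 1.19, adjusted p = 0.04996 in limma). Leaving out 1 array at a time gave 0.81 to 0.97 and kept the call in 1 of 12 refits, with an adjusted p of up to 0.198. The interaction was also not called with replicates 1 and 2 only (0.98, adjusted p = 0.130) or with arrays centred on their medians (0.91, adjusted p = 0.0718). Of the 8 plasminogen activator and tissue factor pathway genes, 0 met this criterion. With 3 arrays a group, single arrays that stand apart within a group were not searched for.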

How the results depend on the processing

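The count of the 8 genes past the threshold was 0 under every refit for metastin-10 under negative control siRNA, metastin-10 in the arrays labelled GPR54 siRNA and the siRNA labels under control peptide (21 refits each), and for the interaction (20 refits). Between the siRNA labels under metastin-10 it was 0 in 20 of 21 refits and 1 with array weights, F3 at an adjusted p of 0.0392. Leaving out each array gave 0 to 0 in all 5. With the replicate block all 5 counts were 0, and SERPINB5 had the smallest adjusted p, 0.124 with metastin-10 under negative control siRNA and 0.0644 between the siRNA labels under metastin-10, a comparison whose same-numbered arrays did not all deviate together (-0.15 to 0.26). Over all probe sets the counts of calls moved more, from 71 to 532 (234 in the fit reported) with metastin-10 under negative control siRNA, 57 to 2016 (316) between the siRNA labels under metastin-10, 0 to 130 (29) between them with control peptide and 2 to 250 (28) for the interaction. The filter on a mean log2 under 6 kept 3 of the 8 genes, PLAU, F3 and TFPI2.

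Signs of single genes changed in 31 of 807 refitted differences, counted by gene, comparison and refit. All of these were for reported differences of at most 0.19 in size. With array weights, PLAU was at 0.00012, PLAUR at 0.0495 and SERPINB5 at -0.015 for metastin-10 in the arrays labelled GPR54 siRNA, and PLAUR at 0.0666 in the interaction. With the mean of all probe sets PLAUR was at 0.0102 and TFPI at 0.0483 for metastin-10 in the arrays labelled GPR54 siRNA, TFPI at -0.0226 between the siRNA labels under control peptide, and PLAUR at 0.0237 in the interaction. With replicates 1 and 2 only SERPINE2 was at -0.0529 for metastin-10 under negative control siRNA, TFPI at 0.0362 in the arrays labelled GPR54 siRNA and -0.0628 between the siRNA labels under control peptide, and PLAT at -0.12 between them under metastin-10. Leaving out 1 array gave both signs for metastin-10 under negative control siRNA in PLAT (-0.0669 to 0.21) and SERPINE2 (-0.0506 to 0.16). It did so for metastin-10 in the arrays labelled GPR54 siRNA in PLAUR (-0.22 to 0.0684), SERPINE2 (-0.15 to 0.0453), TFPI (-0.0413 to 0.0259) and TFPI2 (-0.0617 to 0.0162). Between the siRNA labels the ranges were -0.0044 to 0.29 in PLAUR, -0.12 to 0.0572 in F3 and -0.0478 to 0.12 in TFPI under control peptide, and -0.0671 to 0.21 in PLAT and -0.0326 to 0.13 in SERPINE2 under metastin-10. That of PLAUR in the interaction was -0.17 to 0.12. The cause of these changes was not tested.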

Other observations

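F3 was lowest in the replicate 3 array in each of the 4 groups. Replicate 3 lay 0.27 ± 0.08 (log2, SE) below the mean of replicates 1 and 2 in a limma fit of replicate 3 against the others, with a difference of -0.27 and an adjusted p of 0.0485. Of all genes 8.74% passed in that fit and 11.4% were lowest in replicate 3 in all 4 groups. TFPI2 was highest in replicate 3 in each of the 4 groups (0.17 ± 0.06, adjusted p = 0.0786), as were 4.5% of all genes, while its second probe set was at -0.0089. These arrays also had the lower beta-actin 3 prime minus 5 prime difference, between 0.287 and 0.364, and its part in the values of F3 and TFPI2 was not tested. Each group held 1 such array. With replicates 1 and 2 only, F3 differed by -0.36 between the siRNA labels under metastin-10 (adjusted p = 0.121), against -0.48 with all arrays.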
